A study of Rattus norvegicus with 2 samples.

Results

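Cadherins and protocadherins are calcium-dependent adhesion proteins of the cell surface, and 62 of the 26334 gene names on a rat expression array belonged to them. They were taken by name, as every gene named Cdh or Pcdh followed by a number (with a cluster letter where there is one) in the scanner files, and comprised 21 cadherins and 41 protocadherins. They were read by 70 probes on 79 spots. 8 genes had 2 probes, and all probes but one, the Cdh2 probe with 10 spots, lay on 1 spot.

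The series set the hypothalamus of male rats beside that of female rats, to compare gene expression between the sexes in a brain region that takes part in cardiovascular control. The rats were Wistar Kyoto (WKY), 9 weeks old, and the labels name no treatment or genetic change. From each of 5 males 100 ng of total RNA went into one pool, which was hybridised to 1 array, and a pool of 5 females made the same way went onto another array, after labelling 150 ng of each pool with Cy3. The arrays shared one slide and one scan.

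With 1 array per pool there is no replicate of either sex, so no test between the sexes could be made, and rat-to-rat variation is not measured. Values are given for each pool, and a difference is female minus male on the log2 scale. In a bulk extract, a change in the number of cells of a type and a change in RNA per cell cannot be told apart.

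Classical cadherins bind the same cadherin on the neighbouring cell and are tied to actin through catenins. E-cadherin (Cdh1) is the cadherin of epithelia, N-cadherin (Cdh2) that of neural tissue and VE-cadherin (Cdh5) that of endothelium. Clustered protocadherins are made from 3 adjacent gene clusters, alpha, beta and gamma: in alpha and gamma each variable exon is spliced to constant exons shared by the whole cluster, while beta genes stand alone, and neurons express different combinations that let a cell recognise its own processes.

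Because the clustered genes are so alike, the probe sequences decide what each value measures. Of 2407 pairs of probes for different member genes, 2 pairs shared a run of at least 15 bases, both in the gamma cluster. The probes of these pairs are printed 5′ to 3′ with the shared run in capitals; coordinates are those of the array design on build rn4, plus strand of chromosome 18.
Pcdhga7 (chr18:30626746-30626805): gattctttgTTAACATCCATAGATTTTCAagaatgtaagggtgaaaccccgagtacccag
Pcdhga8 (chr18:30637535-30637594): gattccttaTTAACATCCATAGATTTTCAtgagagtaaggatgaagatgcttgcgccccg
Pcdhga10 (chr18:30658319-30658378): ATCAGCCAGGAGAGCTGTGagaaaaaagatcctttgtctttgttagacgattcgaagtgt
Pcdhga11 (chr18:30666986-30667045): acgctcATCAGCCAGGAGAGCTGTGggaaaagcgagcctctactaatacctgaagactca
The shared runs were 20 bases for Pcdhga7 with Pcdhga8 and 19 bases for Pcdhga10 with Pcdhga11, out of 60 bases per probe, so these values may be partly shared within a pair. Cross-hybridisation was not tested.

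A further pair of probes is shown because the values described later turn on them. The Pcdhgc5 probe lies 3′ of those 4 gamma probes, and the Cdh8 probe, on chromosome 19, belongs to the neuronal cadherin with the largest difference. Neither has capitals, since neither shared a run of at least 15 bases with the probe of another member gene. Such a comparison of probes cannot show whether a probe lies on an exon shared by several genes.
Pcdhgc5 (chr18:30752332-30752391): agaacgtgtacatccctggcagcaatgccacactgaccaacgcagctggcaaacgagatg
Cdh8 (chr19:6013566-6013625): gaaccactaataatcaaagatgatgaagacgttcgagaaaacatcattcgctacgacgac

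Levels are the log2 of a spot's processed intensity minus the log2 of the array's 75th percentile, which was 3769 for the male array and 2943 for the female array. The scanner software called 84.9% (male) and 84.2% (female) of non-control spots well above background. Probes differ in how strongly they bind, so levels are compared between pools and not between genes. The error used for a difference is a technical SD, taken from 317 repeated probes in each of 4 signal groups: 0.15 for a single spot in the dimmest group, then 0.068, 0.061 and 0.054. For the 96 repeated probes below a level of -5 it was 0.22. These values cover spot-to-spot error within the pair of arrays, not labelling or biology. Repeated spots departed from their own probe more often in 3 bands of slide rows (5.31% of spots, against 0.777% elsewhere), and 11 measured members were read only there.

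59 of the 62 members were well above background in both pools, against 78.5% of all genes. 1 was measured in the female pool only (1.23% of genes), 0 in the male pool only (1.97%) and 2 in neither (18.3%). Differences of 1.5-fold or more toward the female pool were seen in 3 members, Cdh1, Cdh3 and Pcdhgb5, against 1.56% of the 20664 measured genes. Toward the male pool no member reached 1.5-fold, against 0.842% of genes. At 2-fold, Cdh1 alone was higher in the female pool (0.508% of genes), and no member was higher in the male pool (0.339% of genes). The other 56 members lay within 1.5-fold, as did 97.6% of all genes.

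The median member difference was 0.07, against 0.00 for all genes, and 46 of 59 members were higher in the female pool, where 50% of genes were. Another scaling shifts every gene alike, and so sets these counts. With the arrays scaled on their median signal 37 members and 39.1% of all genes had the higher value in females, and with spike-in scaling 32 members and 32.4% of all genes. The member median lies 0.07 above the all-gene median under both by construction, since each shifts all genes by the same constant. In either direction, 18 members (30.5%) differed by over 2 technical SD, against 26.6% of all genes. Of the 59 members, 15 (25.4%) did so toward the female pool and 3 (5.08%) toward the male pool. Among all 20664 genes, 3082 did so toward the female pool and 2417 toward the male pool.

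**Figure D1:**
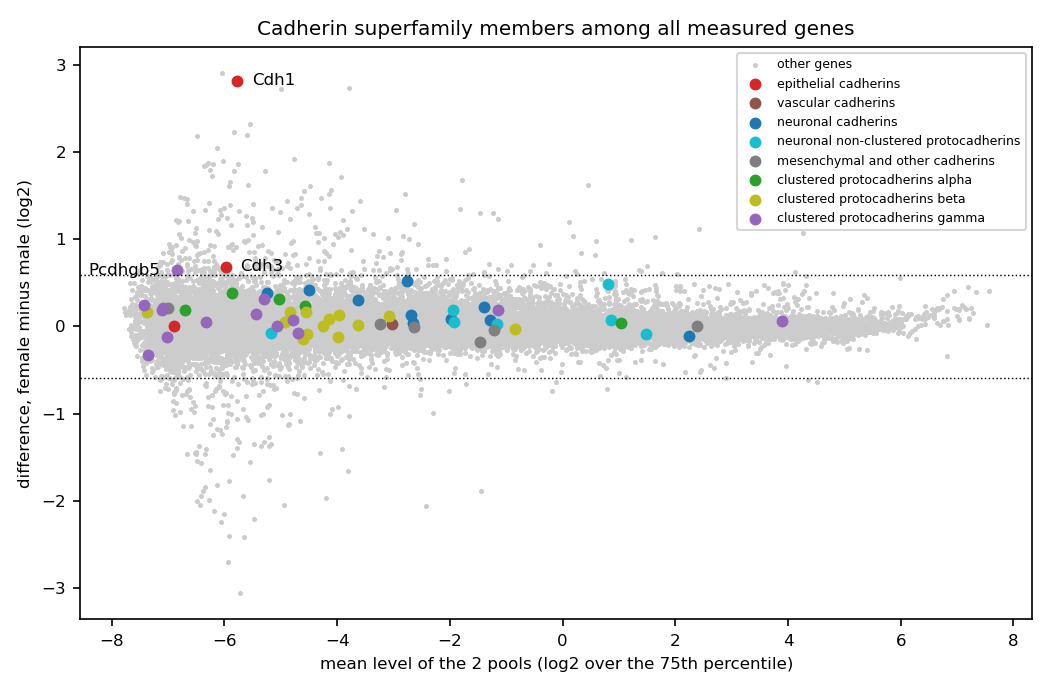
Difference between the pools (female minus male, log2) against mean level for every gene measured in both pools (grey) and for the 59 measured members coloured by set; dotted lines mark 1.5-fold. Cdh1 stands at 2.82, while Cdh3 (0.68) and Pcdhgb5 (0.64) lie just outside the upper line at low levels and the remaining members lie between the lines.

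Among the epithelial cadherins, Cdh1 stood apart. Its level was -7.18 (male pool) and -4.36 (female pool), a difference of 2.82 or 7.04-fold, rank 2 of 20664 genes by size in the female direction. The background-subtracted intensity was 26.0 ± 5.05 (the scanner software's error, male pool) and 143 ± 14.8 (female pool). Both spots were well above background, but the male value is close to the floor, so the size of the fold depends on how background is handled. Normexp correction adds an offset of 50 to every intensity, which by itself makes folds near the floor smaller. Fitted without 4 spots of extreme local background, it gave a fold of 2.71. With those spots in the fit, the direction turned, to -1.34 for Cdh1, -2.07 for Cdh3 and -2.39 for Pcdhgb5, while the median of all genes moved to -0.55.

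The Cdh1 probe lies at chr19:36511853-36511912 on rn4 and was read on 1 spot, outside the bands. Its 37 neighbouring spots within 3 rows and columns had a median difference of -0.01, between -0.39 and 0.58. No second Cdh1 probe was there to repeat it.

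Cdh3, P-cadherin of basal epithelia, was at -6.32 (male pool) and -5.64 (female pool), a difference of 0.68 or 1.61-fold, and 0.44 with normexp fitted without the 4 spots, short of 1.5-fold. It was read on a single spot inside a band and was lost when bands were left out. Cdh17, the liver and intestine cadherin, was at -6.89 and -6.88, a difference of 0.01. Cdh16 and Cdh26 did not rise well above background on either array. Of 5 epithelial cadherins, 3 were therefore measured, 1 of them far apart between the pools.

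Genes of other epithelial junctions and of neighbouring tissues were listed to set these values in place. The lists were chosen with earlier results of these data known, so their counts and medians are descriptive only. Of 15 epithelial markers, 6 lay above 0, with a median of -0.03 and none 1.5-fold apart; the epithelial adhesion molecule Epcam differed by -0.19. Of 18 measured markers of the arachnoid barrier and meningeal fibroblasts, the covering of the brain, 15 leaned to the female pool, 12 of them 1.5-fold or more, and the median was 0.82. Their summed linear level was 5.91 (male pool) and 8.54 (female pool), while that of the epithelial markers was 1.48 and 1.40.

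The largest differences among the meningeal markers were 1.92 for the retinoic acid enzyme Aldh1a2, 1.39 for the transporter Slc47a1 and 1.34 for the transporter Slc22a6, all 3 read inside bands. Outside the bands, the transporter Slc6a20 differed by 1.33 and the matrix protein Ogn by 1.30. Krt18 (-0.12) and Krt19 (-0.16), which stand in both lists, and Cldn11 (-0.21) went the other way. Dpp4 was measured in the female pool only and every other marker of both lists in both pools. The part of meningeal tissue in the Cdh1 difference was not tested.

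**Figure D2:**
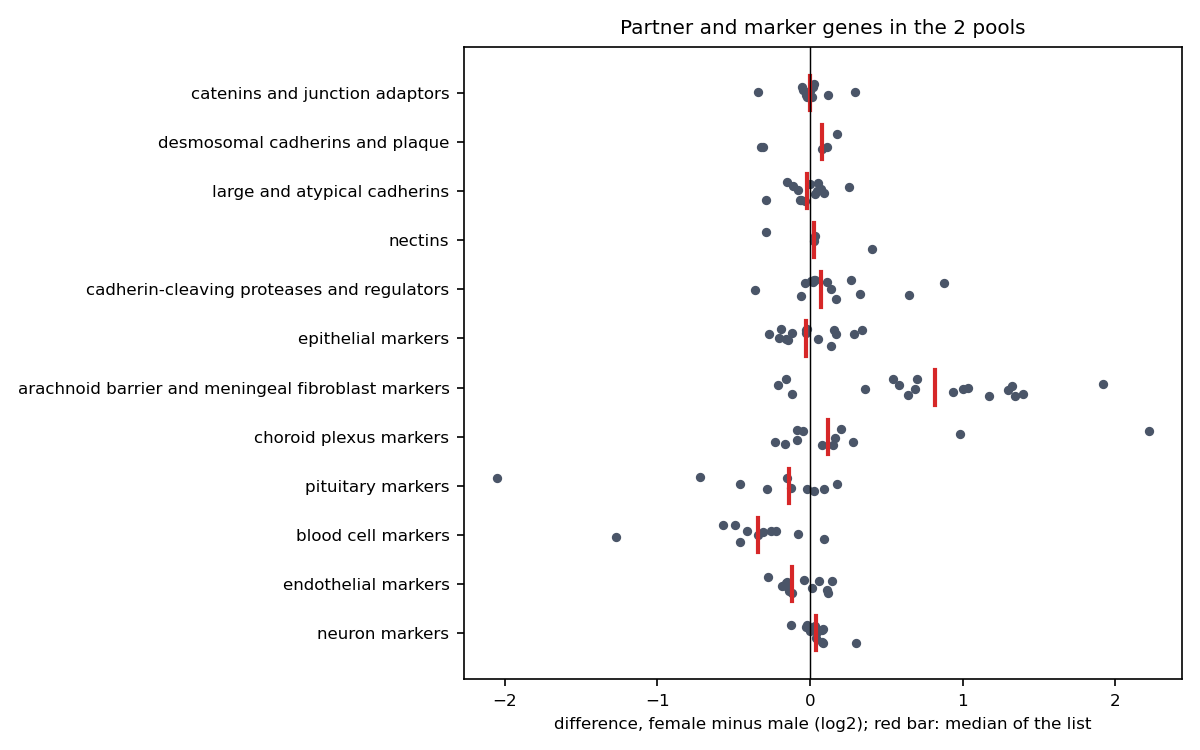
Difference between the pools (female minus male, log2) for each measured gene of the partner and marker lists, 1 point per gene with vertical scatter for visibility and a red bar at each list's median. The arachnoid and meningeal markers centre on 0.82, while the epithelial markers centre on -0.03 and the catenins on 0.00.

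Choroid plexus, pituitary and blood are further tissues that a dissected hypothalamus can carry. The choroid plexus list had a median of 0.12, with 7 of 12 genes above 0. The 3 largest differences were 2.22 for the channel Kcnj13, 0.98 for the thyroid hormone carrier Ttr and 0.28 for the prolactin receptor Prlr. Kcnj13 and Ttr were each read on 1 spot inside a band, and Kcnj13 was at -6.94 in the male pool, near the floor. The largest in the male direction was Kcne2 at -0.23. The 10 measured pituitary markers had a median of -0.14, led by Tshb at -2.05, Cga at -0.72 (inside a band) and Pou1f1 at -0.46. The hormone gene Prl was well above background in the female pool only, at -9.79 (male pool) and -5.72 (female pool), on 1 spot. Its female level was 4.74-fold above -7.97, the lowest level called well above background on the male array. The size of that fold depends on how background is handled.

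The 11 blood cell markers had a median of -0.34, and 1 was higher in the female pool. Their largest differences were -1.27 for S100a8 (inside a band), -0.57 for Ahsp and -0.49 for Alas2. Their part in any member's value was not tested.

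The vascular cadherins showed little. Cdh5, VE-cadherin of endothelial junctions, was at -3.04 (male pool) and -3.01 (female pool), a difference of 0.03 with a technical SD of 0.15. Pcdh12, an endothelial protocadherin, was well above background in the female pool only, at -7.50 (male pool) and -7.13 (female pool). The difference was 0.37 or 1.29-fold, near the floor. It is under 2 times the SD of 0.22 measured below a level of -5.

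The 13 measured endothelial markers had a median of -0.12, and none was 1.5-fold apart. Their summed linear level was 11.7 in each pool, and the largest differences were -0.27 for Tie1, -0.18 for Emcn and -0.16 for Egfl7.

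Neuronal cadherins were mostly a little higher in the female pool: 9 of 10, with a median of 0.18 and none at 1.5-fold. Cdh8, a type II cadherin of brain circuits whose probe is printed above, was at -3.03 (male pool) and -2.50 (female pool), a difference of 0.52 or 1.43-fold. Cdh12, another type II cadherin of brain, was at -4.71 and -4.29, a difference of 0.42. Both exceeded 2 technical SD and were read outside the bands.

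Cdh4, R-cadherin, was at -5.43 (male pool) and -5.05 (female pool), a difference of 0.39. Cdh9 was at -3.78 and -3.48, a difference of 0.30. Cdh6 was at -1.52 and -1.29, a difference of 0.23. These last 3 cadherins were each read on 1 spot inside a band.

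N-cadherin (Cdh2), the general cadherin of neural tissue, gave the best measured value, since its probe lay on 10 spots. Its level was -1.33 ± 0.073 (SD over spots, male pool) and -1.26 ± 0.071 (female pool). The difference was 0.07 ± 0.090 (SD over 10 spots), between -0.05 and 0.22, and 7 of 10 spots were higher in the female pool. The difference of the means was over 2 times the technical SD of a mean of 10 spots, 0.021, and less than the SD of single spots. That SD does not cover the choice of scaling. Cdh2 differed by 0.032 with median scaling and by 0.0043 with spike-in scaling, both under 2 times 0.021. Quantile normalization gave 0.054, which is over it. Whether Cdh2 differed beyond spot error therefore depends on the scaling.

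Cdh7 was at -2.76 (male pool) and -2.62 (female pool), a difference of 0.13. Cdh10 was at -2.03 and -1.94, a difference of 0.09. Cdh20 was at -2.67 and -2.63, a difference of 0.04. All 3 were within 2 technical SD.

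Cdh22, a cadherin of pituitary and brain, was the exception in direction, at 2.30 (male pool) and 2.18 (female pool), a difference of -0.11. It exceeded 2 technical SD of its bright signal group, at 1.08-fold. The 13 neuron markers had a median of 0.04, and 10 were higher in the female pool. The 3 largest were 0.30 for Gad2, -0.12 for Nefm and 0.09 for Map2.

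Of the 7 neuronal non-clustered protocadherins, 5 lay above 0 and 2 below. Beyond 2 technical SD were 2 genes toward the female pool and 0 toward the male pool. Pcdh9, a protocadherin of cortical and other neurons, was at 0.56 (male pool) and 1.05 (female pool), a difference of 0.48 or 1.40-fold, many times the technical SD of 0.054 and outside the bands. Pcdh7 was at -2.05 and -1.86, a difference of 0.19, and its probes gave 0.26 and 0.12. Pcdh17 was at 0.83 and 0.90, a difference of 0.07, with probes at 0.02 and 0.12.

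Pcdh20 differed by 0.05 (-1.95 in the male pool, -1.90 in the female pool). Pcdh8, which is induced by neuronal activity, differed by 0.03 (-1.18 and -1.15). Both lay within 1 technical SD.

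In the other direction, Pcdh19, the X-linked gene of an epilepsy that affects females, was at 1.52 (male pool) and 1.43 (female pool), a difference of -0.09. Pcdh11x, also X-linked, was at -5.14 and -5.22, a difference of -0.08. Both X-linked members lay within 2 technical SD, so neither differed beyond spot error in either direction. The median of the 7 genes was 0.05.

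**Figure D3:**
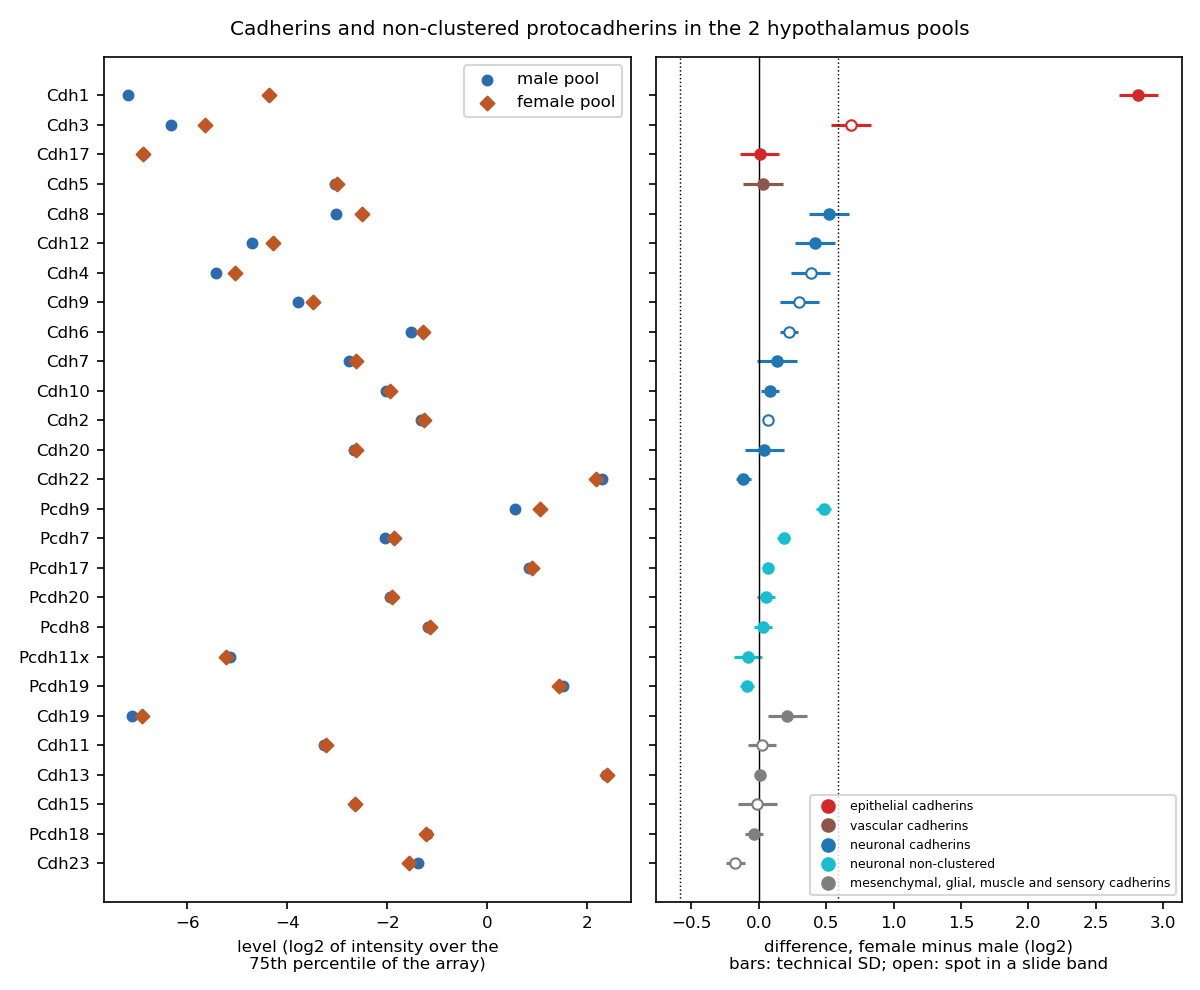
Left, level of each cadherin and non-clustered protocadherin in the male pool (circles) and female pool (diamonds); right, the difference (female minus male, log2) with its technical SD as bars, open symbols for genes with a spot in a slide band and dotted lines at 1.5-fold. Cdh1 is far to the right at 2.82, Cdh8 and Pcdh9 lie near 0.5, and levels of different genes are not comparable.

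Mesenchymal, glial, muscle and sensory cadherins were centred on 0.00. Cdh11, of mesenchyme, was at -3.26 (male pool) and -3.23 (female pool), with probes at 0.07 and -0.02. Cdh13, the lipid-anchored T-cadherin, was at 2.38 and 2.39, with probes at -0.04 and 0.06. Cdh15, of muscle, was at -2.64 and -2.65.

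Cdh19, found in glia of peripheral nerves, was at -7.11 (male pool) and -6.89 (female pool), a difference of 0.21 near the detection floor. Pcdh18 was at -1.20 and -1.23, a difference of -0.03. Cdh23, of inner ear hair cells, was at -1.38 and -1.56, a difference of -0.17 on a spot inside a band. The difference of Cdh11 was 0.02, and the 6 genes of this set ranged from -0.17 to 0.21. The part of meningeal tissue in these values was not tested.

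All 5 alpha protocadherins had the higher level in females, where 50% of all genes did, by a median of 0.23. Pcdha3 was at -6.06 (male pool) and -5.68 (female pool), a difference of 0.38. Pcdha2 was at -5.18 and -4.88, a difference of 0.31. Pcdha13 was at -4.68 and -4.45, a difference of 0.23.

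Pcdha1, the dimmest, was at -6.79 (male pool) and -6.60 (female pool), a difference of 0.19. Pcdhac2 was at 1.03 and 1.06, a difference of 0.04, which is within its technical SD. That is smaller in size than the shift of all genes with spike-in scaling, -0.07, so its direction depends on the scaling. Its probe lies 3′ of the other alpha probes, towards the constant exons, and whether it reads this gene alone or the whole alpha cluster was not tested. Pcdha3 and Pcdha2 exceeded 2 technical SD on the estimate for their signal group, but not on the SD of 0.22 measured below a level of -5.

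The 13 beta protocadherins stayed close together, with a median of 0.05 and a range of -0.15 to 0.17. The largest in the female direction were Pcdhb2 at 0.17 (-7.46 in the male pool, -7.29 in the female pool), Pcdhb20 at 0.17 (-4.64 and -4.47) and Pcdhb9 at 0.16 (-4.92 and -4.76). The largest in the male direction were Pcdhb21 at -0.15 (-4.53 and -4.68), Pcdhb6 at -0.12 (-3.93 and -4.05) and Pcdhb7 at -0.08 (-4.50 and -4.58). None of these 6 exceeded 2 technical SD.

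The 14 gamma protocadherins spread more widely, from -0.33 to 0.64, with a median of 0.10. Pcdhgb5 was at -7.17 (male pool) and -6.52 (female pool), a difference of 0.64 or 1.56-fold. It fell short of 1.5-fold with spike-in scaling (0.58) and with normexp fitted without the 4 spots (0.48). Its intensities were 26.2 and 32.0, close to the floor, and 38 neighbouring spots had a median difference of 0.01. A separate probe that the array describes as Pcdhgb5 under another name, read inside a band, gave -5.66 and -5.76, a difference of -0.10. The pair of Pcdhgb5 probes therefore differed in sign.

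Next came Pcdhga11 at 0.31 (-5.45 in the male pool, -5.14 in the female pool) and Pcdhga10 at 0.25 (-7.56 and -7.31), the pair with the shared run of 19 bases. In the male direction were Pcdhga5 at -0.33 (-7.18 and -7.51), Pcdhgb8 at -0.12 (-6.96 and -7.08) and Pcdhga2 at -0.08 (-4.65 and -4.73). Of these 5 genes, Pcdhga11 and Pcdhga5 exceeded 2 technical SD on the estimate for their signal group, and neither did on the SD of 0.22 measured below a level of -5.

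A gamma probe can read 1 variable exon or a part common to all gamma transcripts. The Pcdhga7 probe printed above did not rise well above background on either array, and the value of Pcdhga7 came from its other probe, at chr18:30753987-30754046, 3′ of all other gamma probes. That probe was at 3.86 (male pool) and 3.92 (female pool), a difference of 0.06. The Pcdhgc5 probe printed above was at -1.24 and -1.05, a difference of 0.19 on a spot inside a band. Both lie at the end of the cluster where the constant exons are, and whether they read single genes or the whole cluster was not tested. Both are counted among the 14 gamma genes all the same.

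**Figure D4:**
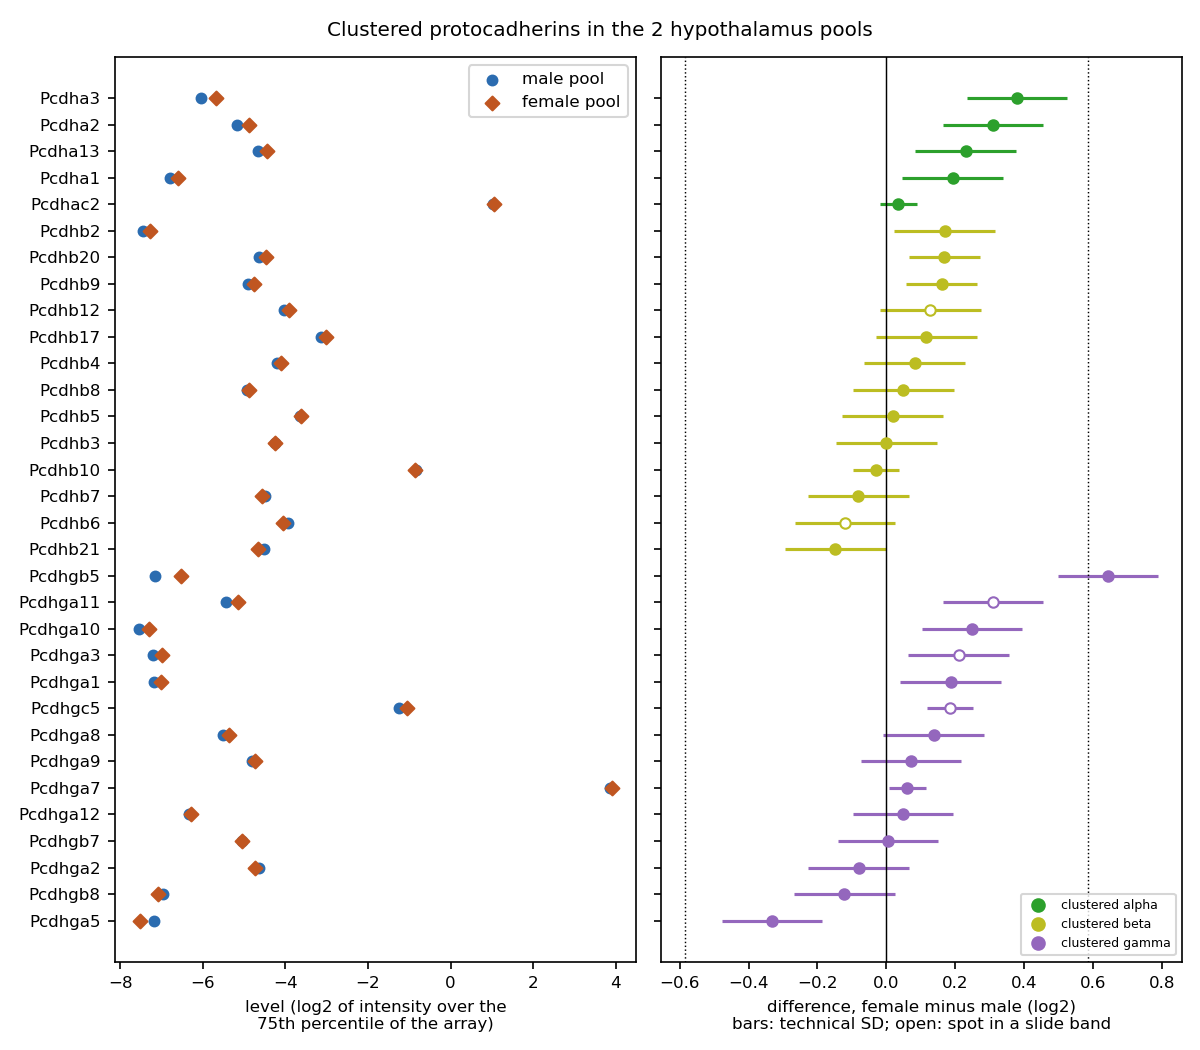
Left, level of each clustered protocadherin in the male pool (circles) and female pool (diamonds); right, the difference (female minus male, log2) with its technical SD as bars, open symbols for genes read inside a slide band and dotted lines at 1.5-fold. The alpha genes all lie right of 0, the beta genes lie between -0.15 and 0.17, and of the gamma genes Pcdhgb5 alone passes the line.

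Together, 25 of the 32 clustered genes had a difference above 0, with a median of 0.10. Dim genes as a whole leaned the same way: when all genes were split by level into 4 equal groups, in the dimmest 54.7% of all genes and 20 of 25 members were higher in the female pool, with medians of 0.03 and 0.17. In the brightest group 40.5% of all genes and 5 of 7 members were, with medians of -0.02 and 0.04. The members' offset was thus larger at low levels, where most clustered genes lie.

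Repeat probes give the error of a gene's value beyond the spot. In 7 members with 2 measured probes, the probes differed by 0.09 to 0.18, with a median of 0.10, and 5 of 7 had the same sign. A further 17 probes were described as cadherins or protocadherins but carried other names, so they are not members. Of these, 16 were measured, 11 were higher in the female pool, the median was 0.09, and none was 1.5-fold apart. Those with a member's symbol in their description were for Pcdhb12, at -0.20, and Pcdhgb5, at -0.10. The member probes of these genes gave 0.13 and 0.64, so they were further apart than the 7 pairs and differed in sign. The Pcdhb12 probes lie at chr18:30246669-30246728 (member) and chr18:30252241-30252300. They are paired by the array's description only, and whether they read the same gene was not tested. For each gene, 1 of these probes was read inside a band.

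Catenins and other junction adaptors, the cytoplasmic partners of classical cadherins, had a median of 0.00 over 11 measured genes, with 5 above 0 and none 1.5-fold apart. Ctnnb1, beta-catenin, was at -1.13 (male pool) and -1.18 (female pool). Ctnna1 differed by 0.01, Ctnna2 by 0.00, Ctnnd2 by -0.02 and Jup, plakoglobin, by -0.02. Ctnnal1 differed by -0.34, on 2 probes inside bands that gave -0.73 and 0.05. Ctnnd1, p120-catenin, differed by 0.30, and its probe with 10 spots gave 0.13 ± 0.14 (SD over spots). The adaptor Tjp1 differed by 0.12.

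Desmosomal cadherins and plaque proteins, which join epithelial cells, were measured for 5 of 11 genes. The 4 largest were -0.32 for Dsc2, -0.31 for Pkp1, 0.18 for Pkp2 and 0.11 for Ppl. The 14 measured large and atypical cadherins had a median of -0.02, the 4 largest being -0.29 for Cdhr5, 0.25 for Fat4, -0.15 for Clstn3 and -0.11 for Celsr1. The Fat4 probes gave 0.67 and -0.17. Neither list held a gene 1.5-fold apart.

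Of the nectins, the immunoglobulin-type partners of cadherin junctions, 4 were measured, at 0.41 for Pvrl3, -0.29 for Pvrl2, 0.03 for Pvr and 0.03 for Pvrl1. Among 14 proteases and regulators of cadherins, 11 were higher in the female pool, and 2 by 1.5-fold or more. These were Twist1, a repressor of Cdh1, at 0.88 and Snai2, also a Cdh1 repressor, at 0.65 inside a band. Snai1, another such repressor, was at -0.36 and Zeb2 at 0.33, both inside bands.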

How the data were processed

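Hypothalamus RNA of 5 male and 5 female rats was pooled by sex and read on 1 one-colour array each. The deposited scanner files hold processed signal intensity per spot (background-subtracted, in the authors' files) from Agilent Feature Extraction, version 10.7.3.1 per the file headers and 9.1 per the submitters' processing notes; the version that made the values is not settled. The deposited value table holds signal values equal to the scanner intensity divided by a constant per array and was used as an alternative. Flags for background, saturation and outliers are as deposited.

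Levels were log2 of the processed intensity minus log2 of the array's 75th percentile over non-control spots. Outlier-flagged spots were left out, and spots were averaged per probe and probes per gene. A probe was measured when over 50% of its usable spots were well above background on each of the arrays. Differences are female minus male. With 1 array per pool the arrays' number limits the precision, and no p-value was computed. Bands are windows of 20 slide rows in which over 2% of repeated spots departed by over 4 robust SD. Accessions of 60 of 70 member probes matched the RefSeq gene table, all with the same symbol. Named are all members of the epithelial, vascular, neuronal and mesenchymal sets, the 3 largest differences in each direction per cluster, repeated probes, members at least 1.5-fold apart or measured in 1 pool only, the largest differences of each list (4 for partners, 3 for markers) and the catenins; a few other values were chosen after they were seen. Members, lists and bands were chosen with earlier results of these data known. The steps were tested on simulated spots. Alternatives covered scaling, background, filters, probe averaging, bands and the deposited table. Python 3.11.15, R 4.3.3 and limma 3.58.1 (normexp with an offset of 50) were used.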

Additional observations from a re-analysis of the deposited data

How the results depend on the processing

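No paired analysis was possible because each sex has 1 array, and for the same reason no replicate could be left out. Of 13 alternatives, 1 gave values of another order: normexp correction fitted on all spots. On the male array 4 spots had a local background over 5 times the median (39), up to 22727, and this fit put the 1st percentile of corrected intensity at 688 (male pool) and 58.0 (female pool); without those spots it was 58.4 and 58.0. With all spots, the median of all genes was -0.55, that of members -1.34, and those of the sets were -2.07 (epithelial), -0.55 (neuronal cadherins), -0.17 (neuronal non-clustered), -0.81 (vascular), -0.51 (mesenchymal, glial, muscle and sensory), -1.60 (alpha), -1.46 (beta) and -2.10 (gamma). Toward the female pool 0 members then passed 1.5-fold and 0 passed 2-fold, against 41 and 34 toward the male pool. Cdh1 was reversed at -1.34, Cdh3 at -2.07 and Pcdhgb5 at -2.39.

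The correction without those 4 spots, chosen after seeing the data, left 1 member past 1.5-fold toward the female pool, Cdh1 at 1.44. Cdh3 was at 0.44 and Pcdhgb5 at 0.48, and the epithelial median was 0.44. The offset of 50 by itself makes differences of such dim genes smaller, apart from any change in the background estimate. With spike-in scaling 2 members passed 1.5-fold toward the female pool, without Pcdhgb5 (0.58), and without the bands 2, with Cdh3 not measured. Over the 12 alternatives other than the fit on all spots, Cdh1 ranged from 1.44 to 2.83. Cdh8 ranged from 0.45 to 0.53 and Pcdh9 from 0.42 to 0.49. With no filter on dim probes, the males' value exceeded the females' by 1.5-fold in 1 member and by 2-fold in 1, in both cases Cdh16, which is below background in both pools, the epithelial median was 0.0082 and the vascular median 0.20. Without the bands the epithelial median was 1.41, over Cdh1 and Cdh17 only. Signal over background limits the members near the floor, among them Cdh1 in the male pool, Cdh3 and Pcdhgb5.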
